A study of Mus musculus with 42 samples.

Results

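The genes described here are 9 genes of the NRF2 antioxidant response in mouse arterial intima: Nfe2l2 and Keap1, which encode the transcription factor NRF2 and its inhibitor, and 7 genes that NRF2 is known to drive, Hmox1, Nqo1, Gclc, Gclm, Txnrd1, Srxn1 and Slc7a11. They are listed by gene name, and they are 9 of the 21674 genes in the deposited table. Their RNA was followed across 42 RNA-seq libraries, of which 35 came from carotid arteries and 7 from cultured cells. All artery libraries were made from intimal RNA flushed out of the vessel, with 3 to 5 arteries pooled per library. Low flow was set up by partial ligation of the left carotid, the contralateral carotid carried high flow, and sham-operated carotids kept normal flow. For the 48 hr groups the mice were C57BL/6J males of 6 to 7 weeks. The untreated 48 hr set had 3 pools each at low, high and sham flow. The treated 48 hr set had 2 pools per group: low flow with IgG control, with anti-GPIba (an antibody that depletes platelets), with anti-Gr1 (an antibody that depletes neutrophils and other Gr1+ cells), with PBS liposomes and with clodronate liposomes (which deplete phagocytes), and high flow with IgG or with PBS liposomes. A further low-flow pool with PBS liposomes and another with clodronate liposomes, 1 library each, were sequenced with the untreated set. The 7 day set came from males and females of 2 to 7 months. All of them carried Rbfox2 lox/lox and the Rosa26-mTmG reporter. EC-KO mice had the endothelial driver Cdh5(PAC)-CreERT2 in addition, for deletion of Rbfox2, an RNA splicing factor, in endothelial cells, and controls had no Cre. There were 3 low-flow and 2 high-flow pools of each genotype. The cultures, 1 library each, were primary aortic endothelial cells sorted for eGFP after 5 days, primary aortic endothelial cells of the control and of the EC-KO genotype after 7 days, and a single TetOn-SV40 immortalized eGFP+ aortic endothelial line, which was left untreated or was given 10% plasma, platelets plus macrophages, or the 3 together, for 48 hr.

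NRF2 is held in the cytoplasm by KEAP1, which hands it to a CUL3 ubiquitin ligase for destruction. Electrophiles and oxidants modify cysteines of KEAP1, NRF2 escapes and, paired with a small MAF protein, binds antioxidant response elements near genes of glutathione, thioredoxin, quinone and heme metabolism. Because this switch works on the protein, the RNA of Nfe2l2 and Keap1 need not move with it. In endothelium, steady laminar flow is known to support NRF2 activity alongside the flow-induced factor KLF2. Several of the target genes also answer to other factors: Hmox1 is repressed by the heme sensor BACH1, and Slc7a11 is a target of ATF4.

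Library totals were 4064477 to 6794904 counts in the artery set sequenced with 100 bp reads and 10318685 to 19035957 in the artery set with 150 bp reads. Levels are given as scaled FPKM, which are counts per kilobase of effective transcript length and per unit of library size (FPKM), with the library size corrected within each set by edgeR's TMM factors. A gene is said to have risen or fallen where edgeR's quasi-likelihood test over all genes gave a Benjamini-Hochberg adjusted p under 0.05. The high-flow pools are contralateral arteries of ligated mice, but nothing in the labels says which pools came from the same mice. The p-values therefore measure the spread between pools. Low-flow pools a and b of the untreated set stood apart: Actb took 10.57% and 10.1% of their counts against 3.74% in low-flow pool c, and their TMM factors were 0.57 and 0.55 against 1.12 to 1.27 in the other pools. By library totals alone the median gene was lower at low than at high flow by a log2 difference of -0.69, and after TMM scaling the difference was -0.07. The 48 hr low-flow results of the called members and the counts of the pathway lists are therefore given with and without these pools. Fits of the other members and of single pathway genes are given for all pools only. Without them 1 low-flow pool, c, is left, and the fit then assumes that this pool varies like the pools of the other group. Per the file headers, the low-flow treated pools were sequenced in a different run from the high-flow treated pools, so flow and run cannot be told apart there. As a check of the labels, Klf2, the flow-induced transcription factor, was at 1.85, 0.981 and 3.65 at low flow and at 53.1, 36.8 and 52.1 at high flow at 48 hr. Rbfox2 in the 7 day low-flow pools was at 3.11, 5.58 and 2.76 in controls and at 1.08, 0.174 and 0.603 in EC-KO mice.

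Promoter windows matched 7 of the 9 genes, all but Hmox1 and Gclc. The windows are RefSeq promoters on GRCm38.p6, 250 bases before to 50 bases after an annotated start, written 5′ to 3′ on the strand of the gene. They were searched on both strands for the core of the antioxidant response element, TGACNNNGC, and for the AP-1 site TGACTCA, which can overlap it. The antioxidant core was found in 4 of 9 windows (Txnrd1 has 3 windows), and in 12.4% of all 32851 mouse promoters of that length. AP-1 letters were found in 1 of the 9 windows, that of Srxn1 with 2 copies, and in 5.2% of all promoters. The 4 windows with a match, and the windows of Nqo1 and Slc7a11 because both genes changed with flow at 48 hr, are shown with the matched letters in capitals.

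The matches began at base -240 from the start in Nfe2l2, -134 in Gclm, -92 in the second Txnrd1 window and 28 in Srxn1, and the AP-1 letters of Srxn1 began at -102 and -45.
Nfe2l2, chr2:75704614-75704913, minus strand: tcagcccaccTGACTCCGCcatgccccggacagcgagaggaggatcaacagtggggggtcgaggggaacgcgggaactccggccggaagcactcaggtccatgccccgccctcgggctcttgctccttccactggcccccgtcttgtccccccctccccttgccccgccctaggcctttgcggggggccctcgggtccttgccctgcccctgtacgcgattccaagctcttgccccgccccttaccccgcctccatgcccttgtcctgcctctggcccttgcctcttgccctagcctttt
Gclm, chr3:122245307-122245606, plus strand: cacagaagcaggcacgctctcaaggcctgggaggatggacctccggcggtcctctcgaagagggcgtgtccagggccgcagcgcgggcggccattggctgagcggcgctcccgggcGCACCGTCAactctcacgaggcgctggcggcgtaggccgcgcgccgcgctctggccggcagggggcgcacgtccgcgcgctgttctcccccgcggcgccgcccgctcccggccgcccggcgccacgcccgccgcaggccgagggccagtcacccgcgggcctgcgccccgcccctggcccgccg
Txnrd1, chr10:82858956-82859255, plus strand: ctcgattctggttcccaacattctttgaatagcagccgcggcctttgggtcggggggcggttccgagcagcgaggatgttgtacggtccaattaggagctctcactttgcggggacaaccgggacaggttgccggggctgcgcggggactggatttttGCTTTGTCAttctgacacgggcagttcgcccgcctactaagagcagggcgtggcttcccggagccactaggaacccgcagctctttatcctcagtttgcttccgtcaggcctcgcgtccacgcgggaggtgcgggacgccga
Srxn1, chr2:152105274-152105573, plus strand: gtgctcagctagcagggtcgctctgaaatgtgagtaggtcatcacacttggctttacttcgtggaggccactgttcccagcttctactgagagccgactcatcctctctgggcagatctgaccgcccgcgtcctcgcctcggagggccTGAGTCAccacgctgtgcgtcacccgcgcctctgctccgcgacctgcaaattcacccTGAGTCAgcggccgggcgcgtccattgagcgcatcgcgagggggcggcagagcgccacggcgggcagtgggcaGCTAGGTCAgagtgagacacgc
Nqo1, chr8:107403156-107403455, minus strand: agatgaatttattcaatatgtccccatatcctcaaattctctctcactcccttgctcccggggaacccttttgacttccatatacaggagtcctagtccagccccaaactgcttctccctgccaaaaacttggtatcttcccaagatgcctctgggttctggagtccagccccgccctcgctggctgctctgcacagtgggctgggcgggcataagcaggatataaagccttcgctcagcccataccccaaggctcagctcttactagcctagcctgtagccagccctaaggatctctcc
Slc7a11, chr3:50443564-50443863, minus strand: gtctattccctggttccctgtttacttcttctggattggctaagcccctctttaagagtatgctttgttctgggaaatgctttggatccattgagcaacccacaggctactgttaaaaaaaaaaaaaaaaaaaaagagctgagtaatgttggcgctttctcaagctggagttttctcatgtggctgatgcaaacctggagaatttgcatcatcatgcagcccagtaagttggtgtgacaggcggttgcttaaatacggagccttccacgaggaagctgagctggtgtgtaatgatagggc

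The windows of Keap1, Nqo1, Slc7a11 and the other 2 of Txnrd1 held no match, which says only that these letters are not in these 300 bases. A match is a description of sequence, not a measured binding site. On mm9, the build of the counts, the genes lie at chr2:75513570-75542698 (Nfe2l2), chr9:21034174-21043776 (Keap1), chr8:77617490-77624495 (Hmox1), chr8:109912125-109927106 (Nqo1), chr9:77602342-77642292 (Gclc), chr3:121948475-121972902 (Gclm), chr10:82296696-82360469 (Txnrd1), chr2:151931252-151937112 (Srxn1) and chr3:50168858-50247535 (Slc7a11), and all values are sums over each gene's exons.

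The first question was whether the response genes differed between low and high flow after 48 hr. They did not move as a block. Of the 9 genes, Hmox1, Txnrd1 and Slc7a11 rose at low flow, Nqo1 fell, and the other 5 were not called. The count of 3 higher stands against 23.6% of all tested genes called higher, and the count of 1 lower against 22.6% called lower, so the share of members called was close to that of all genes. Slc7a11 passed the filter on low counts through its low-flow pools, since it was filtered out between high flow and sham, and with Slc7a11 left out of the count 2 of 8 were higher. In the fit with low-flow pool c alone, Hmox1, Txnrd1 and Slc7a11 were again higher and Nqo1 lower, with the sizes given for each gene below. In bulk RNA of this kind, fewer cells of a type and less RNA per cell cannot be told apart.

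**Figure D1:**
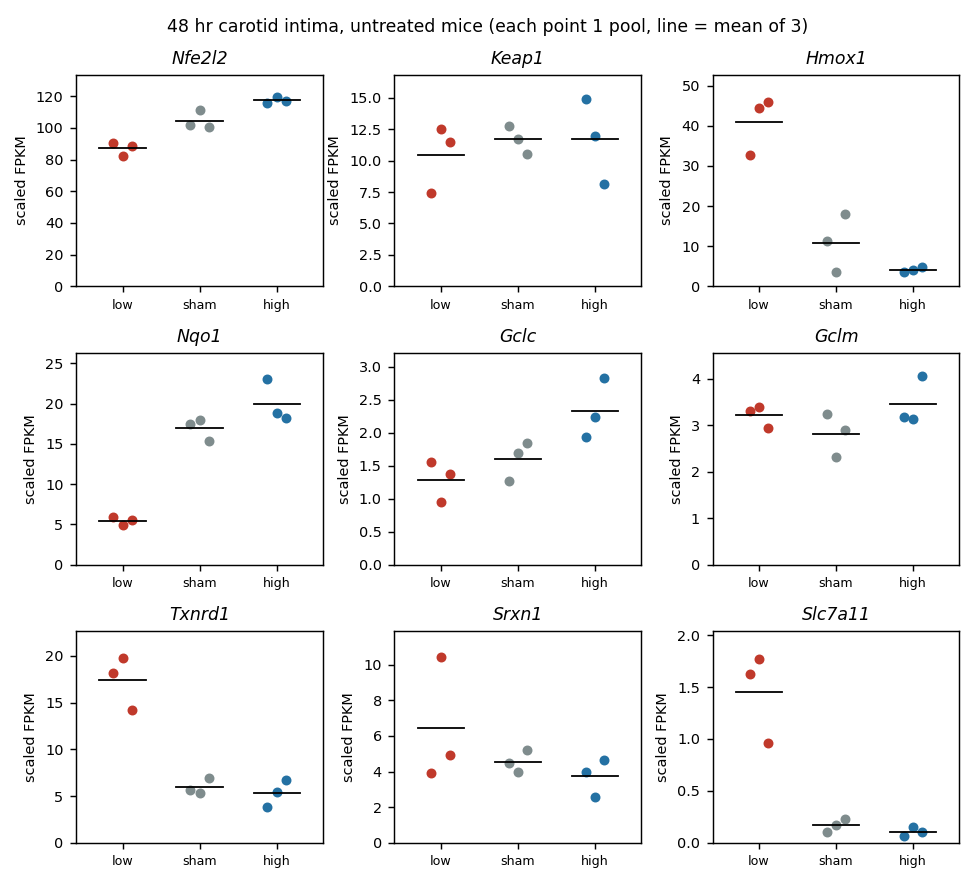
Scaled FPKM of the 9 genes (vertical axes, each from 0) in the untreated 48 hr pools at low, sham and high flow; each point is 1 pool of 3 and each line the mean. The low-flow points of Hmox1, Txnrd1 and Slc7a11 lie above all sham and high-flow points and those of Nqo1 lie below them, whereas the points of Keap1, Gclm and Srxn1 overlap.

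Hmox1 encodes heme oxygenase 1, which breaks heme down to biliverdin, iron and carbon monoxide. It was at 32.7, 44.4 and 45.9 scaled FPKM in the low-flow pools, 3.68, 3.96 and 4.80 in the high-flow pools and 11.2, 3.51 and 18.0 in the sham pools. The lowest low-flow pool lay above the highest high-flow and sham pool, and the sham pools spread widely. Low over high flow was 9.78-fold (log2 3.29, SE 0.22, adjusted p = 2.31e-06). With pool c as the 1 low-flow pool the log2 difference was 3.47.

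Nqo1 encodes a quinone reductase that uses NAD(P)H, and it is often taken as the readout of NRF2. Its level was 5.87, 4.95 and 5.56 at low flow, 23.0, 18.8 and 18.2 at high flow and 17.5, 18.0 and 15.3 in sham arteries. Every low-flow pool lay below every other pool, opposite to Hmox1. Low flow was 3.64-fold below high flow (log2 -1.86, SE 0.21, adjusted p = 5.29e-05), and the difference was -1.83 (adjusted p = 0.00317) with pool c as the 1 low-flow pool.

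Txnrd1, the cytosolic thioredoxin reductase, was at 18.1, 19.8 and 14.2 at low flow, at 3.80, 5.46 and 6.76 at high flow and at 5.69, 5.37 and 6.93 in sham arteries. The low-flow pools did not overlap the others. The rise over high flow was 3.21-fold (log2 1.68, SE 0.23, adjusted p = 0.000208) and was 1.42 (adjusted p = 0.00911) with pool c as the 1 low-flow pool. Srxn1, sulfiredoxin, which repairs overoxidized peroxiredoxins, had 3.92, 10.4 and 4.94 at low flow and 3.97, 2.55 and 4.65 at high flow. Its groups overlapped and the difference of 0.74 (SE 0.37, adjusted p = 0.128) was not called.

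Of the 3 genes of glutathione synthesis, Slc7a11 was called and Gclc and Gclm were not. Slc7a11, the cystine import subunit of system xc-, was at 1.62, 1.77 and 0.964 at low flow and at 0.0695, 0.152 and 0.102 at high flow. The high-flow values stood for 3, 10 and 5 counts, so they were near the floor of 3 counts, but all low-flow pools lay above them. The fitted rise was 12.2-fold (log2 3.61, SE 0.40, adjusted p = 4.41e-05). It was 3.62 (adjusted p = 1.09e-09) with no filter on low counts, and 3.09 on the log2 scale (adjusted p = 0.00274) with pool c as the 1 low-flow pool. From the summed counts, 152 at low and 18 at high flow, the ratio was 11.5 (95% exact conditional binomial interval 7.06 to 20, counting error only). Gclc and Gclm encode the catalytic and modifier subunits of glutamate-cysteine ligase, the enzyme that limits glutathione synthesis. Gclc was at 1.55, 0.944 and 1.37 at low flow and at 1.94, 2.23 and 2.83 at high flow, without overlap, but the difference of -0.82 (SE 0.33) had an adjusted p of 0.0627. Gclm was at 3.31, 3.40 and 2.95 at low flow and at 3.17, 3.13 and 4.06 at high flow (log2 -0.12, SE 0.30, adjusted p = 0.76).

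The regulators themselves moved little. Nfe2l2 was at 90.6, 82.2 and 88.6 at low flow, 116, 119.6 and 117 at high flow and 102, 111 and 101 in sham arteries. Its low-flow pools lay below all others, yet the difference of -0.44 (SE 0.20, adjusted p = 0.0965) was not called. It was called (log2 -0.43, adjusted p = 0.0466) when the sham pools shared the fit, and the adjusted p of Nfe2l2 ran from 0.0466 to 0.271 over the alternatives. Keap1 was at 7.42, 12.5 and 11.4 at low flow and 14.9, 12 and 8.14 at high flow, overlapping throughout (log2 -0.17, SE 0.26, adjusted p = 0.616).

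Markers of other cells moved with the same contrast. The summed level of 13 macrophage markers (of 14 listed) ran from 1918.5 to 6357 scaled FPKM at low flow and from 58.1 to 139 at high flow, and none was at 0 throughout the low-flow pools. The 10 neutrophil markers (of 11 listed) summed to 448 to 2193 at low flow and 15.1 to 32.2 at high flow, with Mpo at 0 in all low-flow pools. The 11 endothelial markers summed to 1809.9 to 2865 at low flow and to 3287 to 3423 at high flow, and the smooth muscle markers to 2406 to 3262 and 267 to 319. The 7 red blood cell markers, from cells rich in heme, summed to 1518 to 3349.5 at low flow and 6198 to 10757 at high flow. The part of these cells in the 4 changes was not tested.

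Against sham arteries the same 4 genes differed. At low flow Hmox1 was 3.66-fold above sham (log2 1.87, SE 0.45, adjusted p = 0.0122), Txnrd1 2.81-fold above (1.49, SE 0.19, adjusted p = 0.00156) and Slc7a11 7.96-fold above (2.99, SE 0.38, adjusted p = 0.00146), while Nqo1 was 3.15-fold below (-1.66, SE 0.19, adjusted p = 0.00131). These 3 higher and 1 lower compare with 20.6% and 19.7% of all genes. Slc7a11 passed the filter on low counts through its low-flow pools, since it was filtered out between high flow and sham. Without it, Hmox1 and Txnrd1 were the higher ones. With no filter on low counts the same 4 genes were called, where 25.7% of all genes were. With pool c as the 1 low-flow pool against 3 sham pools no member was called, nor was any gene (0% of 12187), so that fit says nothing of how stable these calls are. In that fit the log2 difference was 2.04 for Hmox1, -1.64 for Nqo1, 1.21 for Txnrd1 and 2.45 for Slc7a11. For high flow against sham, edgeR called none of the 8 genes tested, as for all genes (0%), and DESeq2 called 0. The 1 gene at an unadjusted p under 0.05, where 7.87% of all genes were, was Hmox1 (log2 -1.41, SE 0.48, adjusted p = 0.44). Leaving out sham pool b, its lowest sham pool, made it the only call, a log2 difference of -1.84 (adjusted p = 0.0278, range over the alternatives 0.0278 to 0.854), where 0.69% of genes were called. Slc7a11 was filtered there for low counts. The sham pools, too, had lower marker sums than the low-flow pools, from 166 to 561 for macrophage, 20.8 to 73.1 for neutrophil and 204.5 to 862 for smooth muscle markers, and their part was not tested.

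The wider pathway was read from lists, fixed with the members in them, of regulators, glutathione, thioredoxin, NADPH, heme and iron, quinone and other antioxidant genes. Outside the 9 genes, 63 of 71 listed genes were tested for low against high flow, of which 21 rose and 13 fell, with a median log2 difference of 0.16 against -0.07 for all genes. All tested genes were called higher in 23.6% and lower in 22.6% of cases. With pool c as the 1 low-flow pool, 9 rose and 9 fell, against 14.2% and 8.21% of all genes. Of the 7 genes of the thioredoxin and peroxiredoxin list (Txnrd1 included), 5 rose and 1 fell with a median of 1.58, and 2 rose and 1 fell with pool c alone. Prdx1, a peroxiredoxin, rose by 2.02 (SE 0.55, adjusted p = 0.0125), with 4808 and 4064 scaled FPKM in pools a and b against 1092 in pool c. A rise was also called for Sesn2, a stress sensor (2.55, SE 0.42, adjusted p = 0.000633), while Txnip, the thioredoxin inhibitor, fell by 1.74 (SE 0.25, adjusted p = 0.000292). The NADPH list had 3 of 6 higher (2 with pool c alone) and none lower, led by Pgd of the pentose phosphate pathway (1.92, SE 0.26, adjusted p = 0.000176).

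In the heme and iron list 5 of 9 rose and 2 fell (2 and 1 with pool c alone), with the iron exporter Slc40a1 at 3.45 (SE 0.40, adjusted p = 5.78e-05) and the ferritin light chain Ftl1 at 2.29 (SE 0.70, adjusted p = 0.0214) beside Hmox1. Ftl1 was at 20555 and 26422 scaled FPKM in pools a and b, 5165 in pool c and 3140 to 4177 at high flow, with pool c nearer the high-flow pools than pools a and b. The glutathione list gave 3 higher and 4 lower of 17, with pool c alone as well. Gsr, glutathione reductase, rose by 2.43 (SE 0.26, adjusted p = 3.78e-05), and the glutathione transferase Gsta4 fell by 3.54 (SE 0.49, adjusted p = 0.000197). Quinone and aldehyde detoxification had 2 higher and 3 lower of 8 (1 and 3 with pool c alone). Nqo1 fell together with the aldehyde dehydrogenase Aldh3a1 (-2.86, SE 0.54, adjusted p = 0.00158) and the epoxide hydrolase Ephx1 (-2.65, SE 0.41, adjusted p = 0.000446), and Akr1b8, an aldo-keto reductase, rose by 2.00 (SE 0.42, adjusted p = 0.00291). Other antioxidant enzymes had 6 higher and 4 lower of 14 (2 and 1 with pool c alone), Sod1 at 1.60 (adjusted p = 0.0317) and the secreted Sod3 and Gpx3 at -1.54 (adjusted p = 0.00406) and -3.33 (adjusted p = 0.00447). Of the 11 regulators tested in this untreated set, which hold Nfe2l2 and Keap1, edgeR and DESeq2 called 0. An unadjusted p under 0.05 was seen for 1, where 53.7% of all genes had one. Fat cell markers summed to 481 to 3955 at high and 62.4 to 265 at low flow, and their part was not tested.

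The flow comparison was repeated in the treated set under both control treatments, in pools of other mice and at 150 bp. With IgG, Hmox1, Txnrd1, Srxn1 and Slc7a11 rose at low flow and Nqo1 fell, 4 higher against 22.8% of all genes and 1 lower against 17.7%. Slc7a11, near 0 counts at high flow, passed the filter on low counts through pools where it is high, and 3 of 8 were higher without it. With PBS liposomes Hmox1 rose and Nqo1 fell, 1 higher against 19.6% and 1 lower against 15.5%. DESeq2 called 4 of the 9 under PBS liposomes, Txnrd1 and Slc7a11 in addition, against 32.5% of all genes. The difference between the 2 flow effects was called for 0 genes of the 9 by edgeR (0% of all genes) and for 0 by DESeq2, and 0 had an unadjusted p under 0.05.

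**Figure D2:**
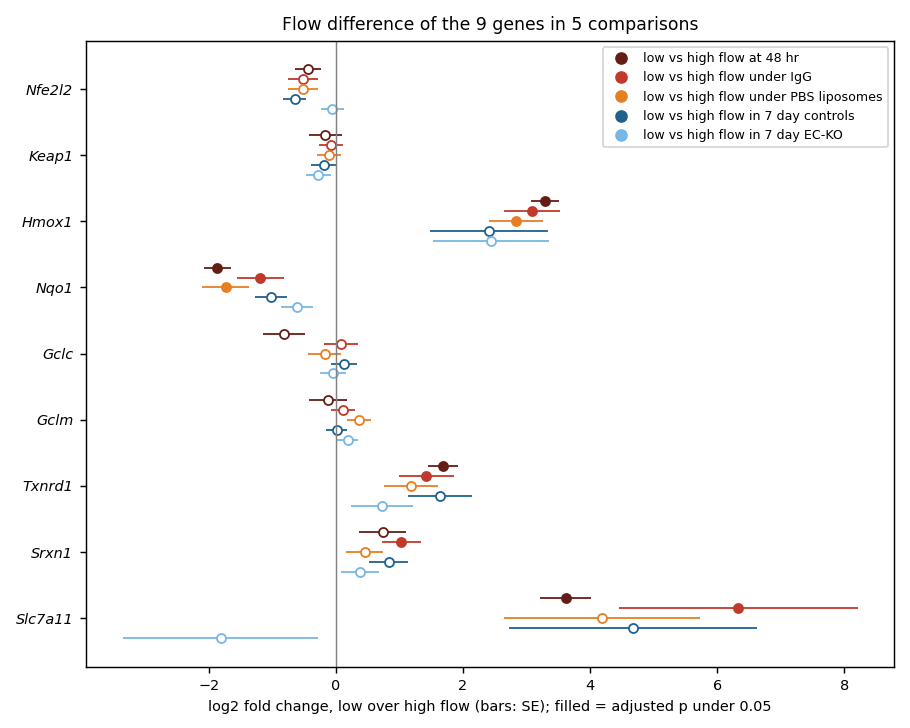
Log2 fold change of low over high flow (horizontal axis, bars 1 SE) for the 9 genes in 5 comparisons; filled points passed an adjusted p under 0.05 in edgeR's quasi-likelihood test. Hmox1 lies between 2.41 and 3.29 and Nqo1 between -1.86 and -0.61 in all 5, while Keap1 and Gclm stay within 0.36 of 0 and Slc7a11 in the 7 day EC-KO pools is the 1 point of that gene below 0.

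Hmox1 was at 26.5 and 24.6 with IgG at low flow and at 1.5 and 4.49 at high flow. With PBS liposomes it was at 35.0 and 40.4 against 5.15 and 5.36. The groups were far apart in both cases, 8.49-fold (log2 3.09, SE 0.43, adjusted p = 0.000938) and 7.16-fold (2.84, SE 0.42, adjusted p = 0.00103). Nqo1 was at 9.97 and 6.55 against 19.8 and 17.8 with IgG, and at 6.91 and 8.94 against 23.0 and 29.8 with PBS liposomes. All low-flow pools lay below all high-flow pools, by 2.28-fold (log2 -1.19, SE 0.37, adjusted p = 0.0254) and 3.33-fold (-1.74, SE 0.38, adjusted p = 0.00549).

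Txnrd1 was at 60.9 and 69.2 against 20.9 and 27.6 with IgG (log2 1.42, SE 0.43, adjusted p = 0.022) and at 69.1 and 89.5 against 31.8 and 38.4 with PBS liposomes (1.18, SE 0.43, adjusted p = 0.0514). Low and high pools did not overlap under either treatment. DESeq2 called the latter too (1.16, adjusted p = 0.0185, range over the alternatives 0.0106 to 0.236), as did edgeR with the replicate number as a block (1.17, adjusted p = 0.014, 38.1% of all genes called). Srxn1 was at 16.2 and 20.7 against 8.48 and 9.59 with IgG, a 2.04-fold rise (1.03, SE 0.30, adjusted p = 0.019), and at 18.4 and 22.9 against 12 and 18.3 with PBS liposomes (0.45, adjusted p = 0.256), where the pools nearly met.

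Slc7a11 was at 1.12 and 0.445 with IgG at low flow and at 0.0181 and 0 at high flow, which stood for 174, 78, 2 and 0 counts. The ratio of the summed counts, 252 to 2, was 86.7 with a 95% exact conditional binomial interval of 23.7 to 719.7 for counting error, and the fitted log2 difference, which leans on those 2 counts, was 6.33 (SE 1.88, adjusted p = 0.0204), and 6.29 (adjusted p = 0.0109) with no filter on low counts. With PBS liposomes it was at 0.430 and 1.43 against 0 and 0.0997 (61, 217, 0 and 13 counts), with an adjusted p of 0.0547 (0.0137 to 0.265 over the alternatives). All low-flow pools lay above all high-flow pools. Nfe2l2 was at 75.4 and 77.7 against 103 and 116 with IgG and at 66.5 and 94.1 against 109.5 and 121 with PBS liposomes. Low flow was the lower side both times, as at 48 hr without treatment, and neither difference was called (-0.52, SE 0.23, adjusted p = 0.0989, and -0.52, SE 0.23, adjusted p = 0.106). Keap1, Gclc and Gclm had log2 differences between -0.18 and 0.36, none called.

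With 2 pools a group, some of these calls hung on single libraries. Under IgG, leaving out either high-flow pool left Hmox1 as the 1 call (25.7% of all genes without pool 1 and 28.6% without pool 2), leaving out low-flow pool 2 left Hmox1 and Slc7a11 (15.3%), and leaving out low-flow pool 1 left 4 without Slc7a11 (30.4%). Under PBS liposomes Hmox1 and Nqo1 were called whichever pool was left out. The marker sums moved with flow here as well. The 13 macrophage markers summed to 2197.5 to 2289 with IgG at low flow and 73.2 to 285 at high flow, the 10 neutrophil markers to 123 to 421 and 4.33 to 63.6, the endothelial markers to 1655 to 1925 and 5551.5 to 5667, and the smooth muscle markers to 2573 to 2812 and 266 to 429.9. With PBS liposomes the sums at low and high flow were 1465 to 2381 and 110 to 202.5 for macrophage, 185 to 523 and 5 to 15.2 for neutrophil, 1711 to 1773 and 3593 to 4597 for endothelial and 1944 to 3900.2 and 259 to 504 for smooth muscle markers. Within the endothelial list under PBS liposomes, Pecam1 was lower at low flow (log2 -2.154, adjusted p = 0.00128) and Cdh5 higher (0.904, adjusted p = 0.0184). With IgG Pecam1 was lower (-2.274, adjusted p = 0.00114), and Cdh5 was on the same side but not called (-0.608, adjusted p = 0.0746). The part of these cells in the differences was not tested. Outside the 9 genes, 68 listed pathway genes were tested, of which 28 rose and 8 fell with IgG (median 0.50, all genes 0.07) and 28 rose and 7 fell with PBS liposomes (median 0.81, all genes 0.06). Of all genes, 22.8% rose and 17.7% fell with IgG and 19.6% and 15.5% with PBS liposomes. With IgG, Txn1, thioredoxin, rose by 2.02 (SE 0.31, adjusted p = 0.00121), Gsr by 1.63 (SE 0.30, adjusted p = 0.00278), Glrx, glutaredoxin, by 2.11 (SE 0.38, adjusted p = 0.00251) and the pentose phosphate enzyme Taldo1 by 1.51 (SE 0.28, adjusted p = 0.00253). Aldh3a1 fell by 2.06 (SE 0.54, adjusted p = 0.0117) and Nfe2l1, the gene of the related factor NRF1, by 1.61 (SE 0.30, adjusted p = 0.00279). Of the 12 regulators tested, 2 rose and 1 fell with IgG, and 4 rose and 1 fell with PBS liposomes. With IgG the 2 that rose were Cul3 (1.042, SE 0.285, adjusted p = 0.0144) and Rbx1 (0.698, SE 0.207, adjusted p = 0.0204). With PBS liposomes Mafg was among those that rose (1.443, SE 0.357, adjusted p = 0.0104), and Nfe2l1 was lower (-1.735, SE 0.303, adjusted p = 0.00208).

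The next question was what happened to the low-flow levels when platelets, Gr1+ cells or phagocytes were depleted. No member passed the main test in any of the 3 depletions. Against IgG, anti-GPIba gave 0 of 9 by edgeR (16.5% of all genes were called). At an unadjusted p under 0.05 were 2, Txnrd1 and Slc7a11 (36.7% of all genes), and DESeq2 called both (22.1% of all genes). Slc7a11 had few counts with anti-GPIba, so it could be tested only through pools where it is high, and without it the DESeq2 call was Txnrd1 alone. With anti-Gr1 edgeR called 0 of 9 (0% of all genes), and with clodronate against PBS liposomes 0 of 9 (0.119% of all genes). DESeq2 also called 0 in both. The 1 gene at an unadjusted p under 0.05 was Slc7a11 in each, where 18.1% of all genes were with anti-Gr1 and 14.9% with clodronate. There too its depleted pools were low in counts. The platelet and Gr1 comparisons share the IgG pools.

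**Figure D3:**
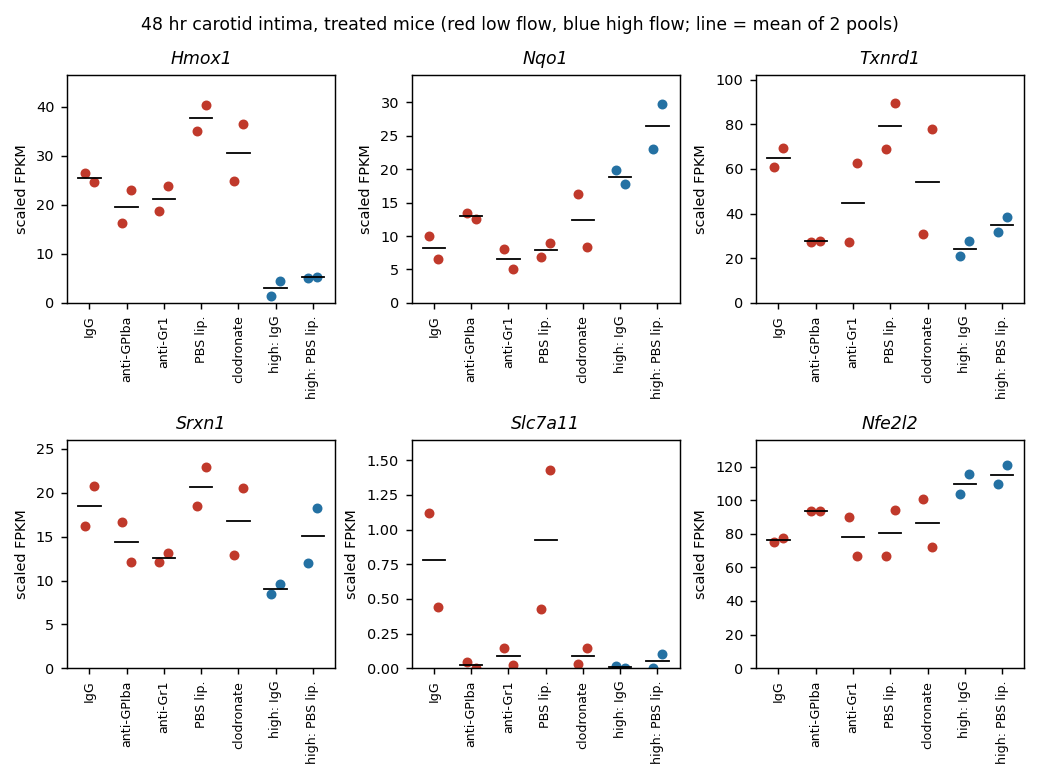
Scaled FPKM (vertical axes, each from 0) of 6 of the 9 genes in the treated 48 hr pools, low flow in red and high flow in blue; each point is 1 of 2 pools and each line their mean. The anti-GPIba points of Txnrd1 (27.3 and 27.9) lie below both IgG low-flow points and within reach of the high-flow ones, and the Slc7a11 points of all 3 depletions lie below those of their low-flow controls.

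Txnrd1 was at 27.3 and 27.9 with anti-GPIba and at 60.9 and 69.2 with IgG. The platelet-depleted pools lay far below the IgG pools and next to the high-flow IgG pools at 20.9 and 27.6. The log2 difference was -1.24 (SE 0.43, adjusted p = 0.0644) by edgeR and -1.22 (adjusted p = 0.0199) by DESeq2, and the adjusted p ran from 0.00464 to 0.278 over the alternatives. With anti-Gr1 it was at 27.5 and 62.4, and with clodronate at 30.9 and 77.7 against 69.1 and 89.5 with PBS liposomes. In both of these depletions 1 pool lay well below its controls and the other among them, and the differences of -0.53 (adjusted p = 0.501) and -0.55 (adjusted p = 0.549) were not called.

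Slc7a11 was at 0.0416 and 0 with anti-GPIba (7 and 0 counts), at 0.148 and 0.0214 with anti-Gr1 (25 and 3 counts) and at 1.12 and 0.445 with IgG (174 and 78 counts). With clodronate it was at 0.0288 and 0.146 against 0.430 and 1.43 with PBS liposomes. Every depleted pool lay below every control pool of its own comparison. The log2 differences were -5.18 (SE 1.65, adjusted p = 0.052) for anti-GPIba, where DESeq2 gave an adjusted p of 0.00481 and the alternatives ran up to 0.211, -3.17 (SE 1.45, adjusted p = 0.275) for anti-Gr1 and -3.40 (SE 1.47, adjusted p = 0.317) for clodronate. The summed counts under anti-GPIba, 7 against 252, gave a ratio of 0.027 (95% exact conditional binomial interval 0.0108 to 0.0565). Of the single 100 bp libraries, with 1 per group and no test, the clodronate pool had 0.280 and the PBS pool 1.12.

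The neutrophil list lay low in the same pools. It summed to 7.65 to 18.1 with anti-GPIba, 21.5 to 46.6 with anti-Gr1 and 123 to 421 with IgG, and to 55 to 71.9 with clodronate and 185 to 523 with PBS liposomes, with Elane at 0 in both anti-GPIba pools. Across the 24 artery libraries of the 150 bp set, log2 levels of Slc7a11 and the list had a Pearson r of 0.60, as a description of libraries that share groups, depth and run. This was not particular to Slc7a11. With the same list r was 0.63 for Hmox1, 0.61 for Txnrd1, -0.65 for Nqo1 and -0.52 for Nfe2l2, and between -0.43 and 0.44 for the other members. The macrophage list summed to 208 to 323 with anti-GPIba, 1193.5 to 1319.5 with anti-Gr1 and 244.8 to 244.9 with clodronate, against 2197.5 to 2289 with IgG and 1465 to 2381 with PBS liposomes. The endothelial list summed to 2970.3 to 3089 with anti-GPIba and 2336.8 to 2613 with anti-Gr1, against 1655 to 1925 with IgG. It summed to 2341.2 to 2990.3 with clodronate against 1711 to 1773 with PBS liposomes. Pecam1 was a large part of that sum, at 1556.7 to 1583.6 with anti-GPIba and 489.1 to 742.4 with IgG at low flow. Cdh5 of the same list went the other way, at 24.8 to 25.7 and 30.6 to 37.2. Smooth muscle markers summed to 402 to 569.5 with anti-GPIba, 1039 to 3861 with anti-Gr1 and 2573 to 2812 with IgG. With clodronate they summed to 1454 to 1647.9 against 1944 to 3900.2 with PBS liposomes. The platelet list summed to 15.6 to 30.4 with anti-GPIba, 42.2 to 68.7 with anti-Gr1 and 42.1 to 47 with IgG, and to 25.1 to 53 with clodronate and 42.3 to 65.4 with PBS liposomes. Fibroblast markers summed to 205.2 to 454.5 with anti-GPIba, 167.5 to 355.6 with anti-Gr1 and 73.4 to 90.2 with IgG, and to 48.2 to 144.8 with clodronate and 54.4 to 79 with PBS liposomes. The part of any of these lists in the levels of Slc7a11 and Txnrd1 was not tested.

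Hmox1 kept near its low-flow level. It was at 16.4 and 22.9 with anti-GPIba and 18.8 and 23.8 with anti-Gr1, a little under the 26.5 and 24.6 of IgG (-0.38, SE 0.39, adjusted p = 0.504, and -0.26, SE 0.39, adjusted p = 0.729), and at 24.8 and 36.4 with clodronate beside 35.0 and 40.4 with PBS liposomes (-0.30, adjusted p = 0.744). Every depleted pool stayed above all 4 high-flow pools. Nqo1 was at 13.4 and 12.5 with anti-GPIba, above the 9.97 and 6.55 of IgG and below the high-flow pools (log2 0.65, SE 0.37, adjusted p = 0.22). It was at 8.02 and 5.07 with anti-Gr1 (-0.33, adjusted p = 0.638) and at 16.3 and 8.40 with clodronate, where 1 pool lay above and the other among the PBS pools at 6.91 and 8.94 (0.64, adjusted p = 0.423). The other 5 genes were not called in any depletion, though some pools did not overlap those of their own control. With anti-GPIba, both pools lay above both IgG pools for Nfe2l2 (93.5 and 93.7 against 75.4 and 77.7; log2 0.29, SE 0.23, adjusted p = 0.387), Keap1 (28.3 and 30.3 against 23.8 and 25.2; 0.26, SE 0.19, adjusted p = 0.339) and Gclc (24.7 and 25.6 against 21.3 and 21.6; 0.23, SE 0.26, adjusted p = 0.551). With anti-Gr1, both pools lay below both IgG pools for Gclm (55.2 and 62.1 against 74.6 and 80.8; -0.41, SE 0.19, adjusted p = 0.286) and Srxn1 (12.1 and 13.1 against 16.2 and 20.7; -0.55, SE 0.30, adjusted p = 0.335). With clodronate, Keap1 was at 28.9 and 29.9 against 23.9 and 24.2 with PBS liposomes (0.29, SE 0.19, adjusted p = 0.473). The other pools of these 5 genes overlapped their controls.

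Other pathway genes did change with platelet depletion, as did the marker sums of other cells given above, whose part was not tested. Of 68 tested outside the 9 genes, 9 were higher and 12 lower with anti-GPIba (median -0.10, all genes -0.04), where 16.5% of all genes were called in either direction. These calls hung on every pool: leaving out any 1 of the 4 left between 0.00719% and 0.638% of all genes called, 1 to 89 genes. The glutathione list had 3 higher and 1 lower of 20. Slc3a2, the partner subunit of Slc7a11 in system xc-, was higher by 1.44 (SE 0.26, adjusted p = 0.0161), at 317 and 359 scaled FPKM against 135 and 114 with IgG, and the glutathione transferase Gstm1 by 1.94 (SE 0.48, adjusted p = 0.0304). The NADPH list had 0 higher and 3 lower of 6: Taldo1 fell by 1.44 (SE 0.27, adjusted p = 0.0192), Pgd by 0.99 (SE 0.27, adjusted p = 0.0348) and Tkt by 0.89 (SE 0.23, adjusted p = 0.0333). Txn1 fell by 1.34 (SE 0.30, adjusted p = 0.0256), Prdx1 by 1.17 (SE 0.27, adjusted p = 0.0276), Gsr by 1.62 (SE 0.30, adjusted p = 0.0185) and Glrx by 1.76 (SE 0.38, adjusted p = 0.023), while Txnip rose by 1.86 (SE 0.56, adjusted p = 0.0441), Aldh3a1 by 2.18 (SE 0.54, adjusted p = 0.031) and Ephx1 by 1.65 (SE 0.48, adjusted p = 0.0415). Aldh3a1 was at 92.8 and 70.2 with anti-GPIba, 25.0 and 11.1 with IgG at low flow and 70.2 and 80.6 with IgG at high flow, so the depleted pools were level with the high-flow pools. The flow and the depletion comparisons share the IgG low-flow pools, so their values are only set side by side. With anti-Gr1 and with clodronate 0 of the 68 were called by edgeR, and 3 (anti-Gr1, 0.852% of all genes) and 4 (clodronate, 2.77%) by DESeq2. An unadjusted p under 0.05 was reached by 35 of the 68 with anti-GPIba (36.7% of all genes), 20 with anti-Gr1 (18.1%) and 20 with clodronate (14.9%).

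At 7 days the same questions were asked in control and EC-KO mice. For low against high flow in controls, edgeR called 0 of the 9 genes, and 6 had an unadjusted p under 0.05, where 25% of all genes had one. All genes were called at low rates, 0.959% higher and 1.44% lower. DESeq2 called 5, Nfe2l2, Hmox1, Nqo1, Txnrd1 and Slc7a11, where it called 13.8% of all genes. The low-flow libraries numbered 1 came, per the file headers, from another sequencing run than those numbered 4 and 5. Leaving both of them out, edgeR called Hmox1, Txnrd1 and Srxn1 higher and Nfe2l2 and Nqo1 lower, 3 against 15.3% of genes and 2 against 13.8%. Leaving out the control library numbered 1 alone gave 4 calls, without Srxn1, where 29.4% of genes were called. The high-flow pools are the contralateral arteries of ligated mice, but nothing in the labels says that pools with the same number came from the same mice. With the number as a block, edgeR called Hmox1 (adjusted p = 0.00881), Txnrd1 (0.0104), Nqo1 (0.0323) and Nfe2l2 (0.0456) in controls, 4 of 9 where 22% of genes were called.

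**Figure D4:**
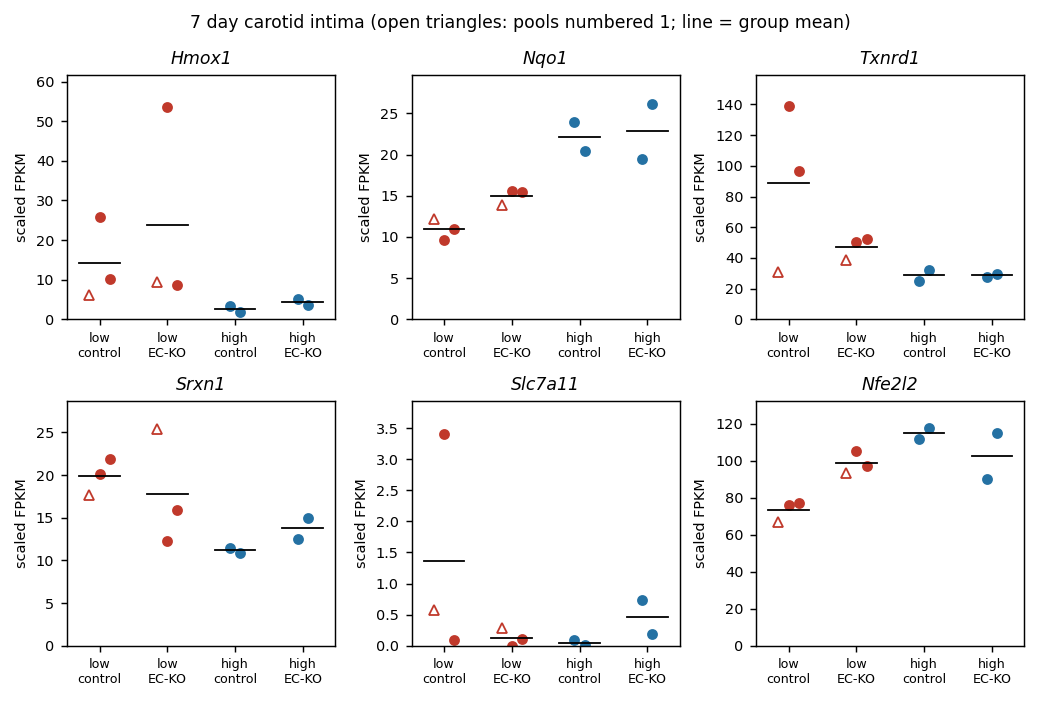
Scaled FPKM (vertical axes, each from 0) of 6 of the 9 genes in the 7 day pools by flow and genotype; each point is 1 pool, open triangles are the low-flow pools numbered 1 and each line is the group mean. Txnrd1 in low-flow controls runs from 31.1 in the pool numbered 1 to 139, and Nqo1 is lower in every low-flow pool than in every high-flow pool.

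Nqo1 was at 12.2, 9.60 and 11.0 at low flow in controls and at 23.9 and 20.4 at high flow, again with no overlap (log2 -1.02, SE 0.25, adjusted p = 0.0584, and -1.10 with an adjusted p of 0.0182 without the libraries numbered 1). Nfe2l2 was at 66.7, 75.9 and 77.2 against 112 and 118, also without overlap (-0.65, SE 0.18, adjusted p = 0.0707, and -0.59 with 0.0353). Hmox1 was at 6.22, 26.0 and 10.2 against 3.33 and 1.97 (2.41, SE 0.92, adjusted p = 0.142, and 2.76 with 0.0402). All 3 low-flow pools lay above the high-flow pools but spread over a wide range. Over all alternatives the adjusted p ran from 0.00304 to 0.329 for Nqo1, 0.0117 to 0.392 for Nfe2l2 and 0.00881 to 0.509 for Hmox1.

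Txnrd1 was at 31.1, 139 and 96.6 at low flow and 25.0 and 32.3 at high flow. The library numbered 1 lay within the high-flow range and the others well above it, so the log2 difference was 1.64 (SE 0.50, adjusted p = 0.0861) with it and 2.04 (adjusted p = 0.000839) without, and the adjusted p ran from 0.000702 to 0.376 over the alternatives. Srxn1 was at 17.6, 20.1 and 21.9 against 11.5 and 10.9 (0.83, SE 0.31, adjusted p = 0.133, and 0.91 with 0.0205, range 0.0205 to 0.476). Slc7a11 was at 0.582, 3.41 and 0.0859 against 0.0913 and 0.0103, which stood for 92, 438 and 8 counts against 12 and 1. Its low-flow pools reached from the high-flow range to far above it. The pool at 3.41 also had the highest neutrophil sum, 187 beside 24.7 and 13.3, and the highest macrophage sum, 1422 where the lowest was 306, and their part was not tested. Gclc ran from 22.0 to 28.2 at low and 23.4 to 23.6 at high flow, Gclm from 65.6 to 75.9 and 70.2 to 72.4, and Keap1 from 28.8 to 33.9 and 33.3 to 36.9. Marker sums moved with flow in the controls too. They ran from 1692 to 2897 at low and 4811 to 5294 at high flow for endothelial markers, from 725 to 1029 and 152.5 to 201 for smooth muscle and from 306 to 1422 and 48.1 to 125 for macrophages, and their part in the differences was not tested.

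In EC-KO mice edgeR called 0 of 9 for flow (0.352% of genes higher, 0.741% lower). An unadjusted p under 0.05 was seen for 2, Hmox1 and Nqo1, where 15.7% of all genes had one. DESeq2 called Hmox1 (5.93% of all genes), as did edgeR with the number as a block (2.43, adjusted p = 0.0213, 9.86% of genes). Hmox1 was at 9.48, 53.6 and 8.63 at low and 5.15 and 3.61 at high flow (2.45, SE 0.91, adjusted p = 0.236). Nqo1 was at 13.8, 15.5 and 15.5 against 19.5 and 26.2 (-0.61, SE 0.25, adjusted p = 0.285). Both kept the side they had in controls, without overlap. Txnrd1 was at 38.8, 50.6 and 52.4 against 27.8 and 29.4 (0.73, SE 0.48, adjusted p = 0.498), without overlap. Slc7a11 was at 0.282, 0 and 0.0999 against 0.730 and 0.189 (48, 0, 13, 107 and 30 counts), and Nfe2l2 at 93.3, 105 and 97.4 against 90.1 and 115, both overlapping. Srxn1 ran from 12.3 to 25.4 at low and 12.5 to 14.9 at high flow. Marker sums moved with flow in EC-KO mice as in controls, from 82.7 to 98 at high and 917 to 1711 at low flow for macrophage, 133 to 163 and 618.5 to 1049 for smooth muscle and 4967 to 5117 and 2335 to 2694 for endothelial markers. In EC-KO mice fibroblast sums, 43.9 to 92.8 at high and 424.8 to 1529.7 at low flow, and fat sums, 439.6 to 681.1 and 30.4 to 154.8, did not overlap either, whereas in controls both lists overlapped. The high-flow pool with Slc7a11 at 0.730 also had the 4 T and B cell markers at 143 and Ptprc at 25.9, against 15.3 and 4.18 in the other high-flow pool. The part of these cells was not tested.

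Between genotypes edgeR called 0 of 9 at low flow (0% of all genes) and DESeq2 also called 0. The 2 genes at an unadjusted p under 0.05 were Nfe2l2, higher in every EC-KO pool than in every control pool (0.43, SE 0.16, adjusted p = 0.692), and Slc7a11 (-3.38, SE 1.51, adjusted p = 0.692), whose pools overlapped. Nqo1, at 13.8, 15.5 and 15.5 in EC-KO and 12.2, 9.60 and 11.0 in control pools, was also higher in every EC-KO pool and was not called (0.45, SE 0.23, adjusted p = 0.692). Txnrd1 differed by -0.91 (SE 0.42, adjusted p = 0.692) over all pools. Without the libraries numbered 1, its EC-KO pools at 50.6 and 52.4 stood below control pools at 139 and 96.6, and it was the 1 member called (-1.19, SE 0.22, adjusted p = 0.0412, range over the alternatives 0.0132 to 0.965), where 2.84% of genes were. The call thus rested on leaving out the control library at 31.1, which by itself gave the same 1 call where 11.1% of genes were called, so 1 of 9 was at the rate of all genes. At high flow edgeR called 0 of 9 (0.00749% of all genes), DESeq2 0, and 0 had an unadjusted p under 0.05. For the difference in flow effect between the genotypes edgeR called 0 of 9 (0% of all genes) and DESeq2 0. Nfe2l2 (0.59, SE 0.26, adjusted p = 0.986) and Slc7a11 were the 2 at an unadjusted p under 0.05. A flow effect that differs between genotypes was therefore not shown for any of the 9. Macrophage sums ran from 917 to 1711 in EC-KO and from 306 to 1422 in control low-flow pools, and endothelial sums from 2335 to 2694 and from 1692 to 2897. Fibroblast sums ran from 425 to 1529.7 in EC-KO and from 91.6 to 368 in control low-flow pools, with no overlap. The part of these cells was not tested.

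Levels were not comparable between the 100 bp and 150 bp sets for every gene. By library total, Gclm ran from 1.87 to 6.9 FPKM over the 11 artery libraries of 100 bp and from 54 to 106.6 over the 24 of 150 bp, and Gclc from 0.519 to 4.14 and from 14.8 to 29.6, with no overlap. Keap1 also did not overlap, at 4.22 to 16.7 and 22.4 to 43.4, nor did Srxn1, at 2.23 to 6.59 and 8.38 to 25.5, whereas Nfe2l2, Hmox1, Nqo1, Txnrd1 and Slc7a11 did. Under the same label, low flow with PBS liposomes at 48 hr, the 150 bp pools over the 100 bp library had a ratio of 11.8 for Gclm, 6.07 for Gclc, 2.93 for Srxn1, 2.91 for Txnrd1 and 1.88 for Keap1, but of 1.27 for Nqo1, 0.825 for Nfe2l2 and 0.759 for Hmox1. Ratios of at least 10 were seen in 1.21% of 10898 genes with 1 FPKM or more in the 150 bp pools, and the median ratio was 1.17. After the authors trimmed the reads of 12 libraries of the 150 bp set to 100 bp, Gclm kept 0.962 to 1.05 and Gclc 0.936 to 1.01 of its level, so both were as high with reads cut to 100 bp. All tests above stay within a set.

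Within the 48 hr untreated set, the order of levels at high flow was Nfe2l2, Nqo1, Keap1, Txnrd1, Hmox1, Srxn1, Gclm, Gclc and Slc7a11 by the mean of 3 pools. The ranges of Txnrd1, Hmox1, Srxn1 and Gclm overlapped there, as did those of Srxn1 and Gclc, so the order of these neighbours is within their spread. At low flow Hmox1 at 32.7 to 45.9 and Txnrd1 at 14.2 to 19.8 stood above Keap1 at 7.42 to 12.5 and Nqo1 at 4.95 to 5.87. Nqo1 thus went from above Hmox1 at high flow to below it at low flow.

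Across the 24 artery libraries of the 150 bp set the members fell on opposite sides. Pearson correlations of log2(FPKM + 1), given as descriptions of libraries that share groups, runs and cell content, were 0.86 between Nfe2l2 and Nqo1, 0.64 between Hmox1 and Txnrd1 and 0.68 between Txnrd1 and Srxn1, and -0.73 between Hmox1 and Nqo1 and -0.64 between Nqo1 and Txnrd1. Gclc and Gclm had a correlation of 0.01. Pecam1 was a large part of the endothelial sum, and Cdh5 of the same list did not always move with it. The summed endothelial markers had a correlation of 0.80 with Nqo1 and 0.71 with Nfe2l2, and of -0.83 with Hmox1 and -0.81 with Txnrd1. For the smooth muscle sum it was 0.80 with Hmox1 and -0.85 with Nqo1, and for the macrophage sum 0.78 and -0.74. The levels of Nqo1 and Hmox1 thus followed the marker sums of the pools in opposite directions, and what part the cell mixture had was not tested.

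The genes most like each member over these 24 libraries, by the same correlation among 11364 genes at a mean of 1 FPKM or more, were Nck1 (0.885) for Nfe2l2, Rtn1 (0.840) for Keap1, Eef1a1 (0.901) for Hmox1, Nck1 (0.943) for Nqo1, Azi1 (0.818) for Gclc, Apool (0.815) for Gclm, Hnrnpu (0.978) for Txnrd1, Aplf (0.858) for Srxn1 and Rab44 (0.884) for Slc7a11. Nfe2l2 and Nqo1 shared their nearest gene. Cd177, a neutrophil surface protein gene, came next for Slc7a11 (0.867), and the heat shock protein gene Hspa4 ranked 3 for Txnrd1 (0.969).

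In cultures there was 1 library per condition, so ratios carry exact conditional binomial intervals for counting error only and no test of the condition was run. A ratio of at least 1.5 either way was used to count genes. The line kept little of the endothelial list, which summed to 143 to 170 FPKM against 2123 and 2309 in the 150 bp primary cultures of control and EC-KO cells, with Cdh5 at 1.86 to 5.75 against 68.3 and 71.4 and Pecam1 at 53.1 to 82.9 against 373 and 391.

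**Figure D5:**
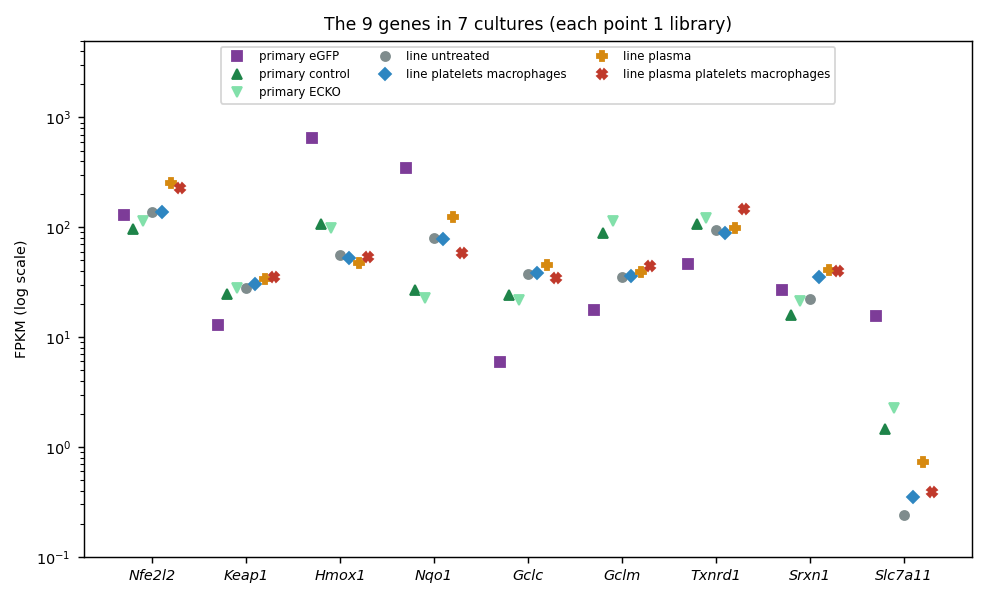
FPKM (log scale) of the 9 genes in the 7 cultures, 1 library per point. Among the 6 cultures of 150 bp, Nfe2l2 is highest in those of the line with plasma (251 and 227). The primary eGFP+ culture, sequenced at 100 bp, is drawn beside them and has Hmox1 at 649.7.

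With plasma, 4 of the 9 genes were past 1.5-fold over the untreated line, where 25.6% of genes were. Nfe2l2 went from 139 to 251 FPKM (ratio 1.81, 95% interval 1.74 to 1.87), Nqo1 from 79.3 to 123 (1.55, 1.46 to 1.65), Srxn1 from 22.4 to 40.7 (1.82, 1.66 to 1.98) and Slc7a11 from 0.240 to 0.733 (3.05, 2.02 to 4.71), the last from 32 and 93 counts. All 4 were higher with plasma, and Nqo1 and Srxn1 thus lay on the same side. Hmox1 went from 56.1 to 47.1 (0.841, 0.771 to 0.917). With platelets and macrophages 1 gene was past 1.5-fold, where 25% of genes were: Srxn1, at 35.2 (1.57, 1.43 to 1.72). Hmox1 was at 52.5 (0.936, 0.861 to 1.02) and Txnrd1 at 88.9 (0.946, 0.907 to 0.987).

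Plasma on top of platelets and macrophages moved 2 genes past 1.5-fold, where 33.5% of genes were. Nfe2l2 went from 137 to 227 (1.66, 1.6 to 1.72) and Txnrd1 from 88.9 to 146.5 (1.65, 1.59 to 1.71). Nqo1 went the other way, from 77.5 to 57.8 (0.746, 0.693 to 0.803), whereas plasma alone gave a higher level. Macrophage markers had their highest sum with platelets and macrophages, and summed to 271 with all additions, 45 with plasma alone and 16.5 without. From the untreated line to plasma alone, smooth muscle markers went from 368.5 to 134, fibroblast markers from 221.5 to 84.8 and fat markers from 14.4 to 154. The part of these was not tested.

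In primary cells EC-KO over control had 1 of 9 past 1.5-fold, where 18.9% of genes were: Slc7a11 at 2.28 over 1.44 (1.58, 1.29 to 1.93; 206 and 191 counts). Gclm was at 115 over 89.4 (1.29, 1.2 to 1.38), Srxn1 at 21.3 over 15.9 (1.34, 1.19 to 1.51) and Hmox1 at 98.1 over 106 (0.923, 0.862 to 0.987). Rbfox2 was at 0.675 in the EC-KO culture and 9.33 in the control, and the macrophage list at 2.06 and 348, with 8 of 13 markers at 0 in the EC-KO culture. The eGFP+ primary culture, of the 100 bp set and so not compared with the others, had Hmox1 at 649.7, Nqo1 at 346 and Slc7a11 at 15.6 FPKM. Among the 100 bp artery libraries the highest levels of these genes by library total were 51.4, 25.7 and 1.12.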

How the data were processed

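RNA from carotid intima pools and cultured endothelial cells was amplified with a SMARTer low-input kit and sequenced. The deposited table holds, per gene and library, expected counts that the authors estimated with RSEM 1.2.15 after STAR 2.5.1b alignment to mm9, and RPKM values computed by the authors for most 150 bp libraries. For the untreated 48 hr pools the study's methods also name another aligner. Of 204 value columns 76 were used. Among the 128 others, 42 belong to second sequencing runs and repeated libraries and were mapped to no sample. Deposited TPM were not used. Low-input amplification without molecular identifiers means that intervals cover counting error only. The 1 row without a gene name (0.044 to 0.117% of counts in the 150 bp libraries) was left out.

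Expected counts were rounded and tested over all genes with edgeR 4.0.16 (filterByExpr, TMM, quasi-likelihood test, Benjamini-Hochberg adjustment) in R 4.3.3, within the 2 groups compared for the untreated 48 hr pools and within 1 fit each for the treated and 7 day pools. DESeq2 1.42.0, other scalings and filters, and leaving out libraries were alternatives. The code was tested on simulated data. FPKM were computed from the counts, effective length and library total. The called level was an adjusted p under 0.05. Other pathway genes are named where they were among the up to 3 largest called changes of their list. The members and lists were chosen with earlier results of these data known. In the comparison of genotypes at low flow at 7 days, the deviations of same-numbered pools had correlations of 0.489 (number 1), 0.17 (number 4) and 0.272 (number 5). The libraries numbered 1 also came from another sequencing run. The labels do not say that the numbers pair mice, so the main fit used no block. The fit with the replicate block called 0 members, as the main fit did.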

Additional observations from a re-analysis of the deposited data

How the results depend on the processing

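No difference of the 9 genes that was called in its comparison turned its direction under any alternative run. Uncalled ones did, among them Keap1 and Gclm at 48 hr without 1 pool and Hmox1 between genotypes at low flow (0.76, and -0.64 without EC-KO library 4). For low against high flow at 48 hr the same 4 genes were called in every fit that left out 1 pool, where 35.5% to 47.8% of all genes were called. Leaving out low-flow pools a and b, a choice made after seeing the data, leaves 1 low-flow pool. In that fit the same 4 genes kept their sides against high flow and against sham. Against sham, leaving out 1 pool kept 4, where 21.9% to 41.8% of all genes were called. High flow against sham ranged from 0 to 1 when 1 pool was left out, the 1 without sham pool b. For anti-GPIba, 2 members were called by DESeq2, 2 without a filter on low counts (15.2% of all genes) and 2 with the 2 groups alone (34.5%), and 0 whichever pool was left out, where at most 0.638% of all genes were called, so these 0 say nothing of the members. Low against high flow under IgG ranged from 1 to 4 when 1 library was left out. Under PBS liposomes DESeq2, no filter (27.3% of all genes) and the 2 groups alone (42.3%) each called 4, and RLE scaling (35%) called 3. In 7 day controls DESeq2 called 5, the fit without both libraries numbered 1 called 5, and leaving out 1 library ranged from 0 to 4. The fits with 0 called 0.0216% to 0.392% of all genes, so these 0 say nothing of the members. In 7 day EC-KO mice DESeq2 called 1. Between genotypes at low flow, the fit without both libraries numbered 1 called 1, and leaving out 1 library ranged from 0 to 1. The causes of these shifts were not tested.

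With a replicate block, anti-GPIba gave 2 calls (24.7% of all genes), 7 day controls 4 and 7 day EC-KO mice 1, where the fits without it gave 0. The labels do not say that these numbers pair mice, and the correlations of same-numbered deviations were -0.068 for anti-GPIba, 0.022 and 0.22 for 7 day controls and -0.032 and 0.052 for EC-KO mice. Under PBS liposomes the block added Txnrd1, 3 calls against 2 (38.1% of all genes), with a correlation of 0.378 between same-numbered deviations over 2 pairs. It changed the calls of no other comparison. The second sequencing run of the 48 hr pools and the sum of both runs were not run as alternatives, since those columns were matched to no sample. No paired analysis was possible because the untreated 48 hr pools carry letters that no 2 groups share. With 2 to 3 pools a group, small differences in Gclc, Gclm and Keap1 could be missed, and Slc7a11 at high flow, at 0 to 13 counts in the 48 hr libraries, is limited by depth. Deposited RPKM in place of FPKM moved 63 of 135 levels by more than 1 SD between pools, or more than the 95% counting error in groups of 1 library, with a median ratio of 1.07.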
